A study of Rattus norvegicus with 14 samples.

Results

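The acyl-CoA thioesterases examined here were 10 genes (Acot1, Acot2, Acot3, Acot4, Acot7, Acot8, Acot9, Acot11, Acot12 and Acot13), taken by symbol from the 16816 genes of the RNA-seq count table. PCCL3 is a cultured line of rat thyroid follicular cells. PPFP cells are PCCL3 cells that stably express the human PAX8-PPARG fusion protein with a 3xMyc tag at its amino terminus, and EV cells are PCCL3 cells stably transfected with the empty vector. The fusion joins a thyroid transcription factor to the nuclear receptor PPARG, and pioglitazone is a drug that activates PPARG. Both lines were grown in medium with thyrotropin, insulin and hydrocortisone and received either 1 µM pioglitazone, dissolved in DMSO, or vehicle for 16 h. This gave 4 groups of 3 libraries: EV cells without pioglitazone, EV cells with pioglitazone, PPFP cells without pioglitazone and PPFP cells with pioglitazone. The methods describe the 3 libraries of a group as independent experiments. Each genotype is represented by 1 transfected line, so the fusion and other differences between the lines cannot be told apart.

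Acyl-CoA thioesterases split fatty acyl-CoA into a free fatty acid and coenzyme A, and so set how much activated fatty acid a compartment holds. Type I members are alpha/beta hydrolases and sit side by side in the genome, while type II members share the hotdog fold and lie on several chromosomes. In liver, members of the type I cluster are known targets of the related receptor PPARA, and PPARG classically acts with RXR on direct repeats of the letters AGGTCA separated by 1 base.

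The count table gave whole-number counts per gene, and levels are given as CPM, counts scaled to a common library size with TMM factors. CPM is not divided by transcript length, so levels are compared between groups and not between genes. Total counts ran from 23724703 to 35240176 per library. As a check of the labels, the rat Pparg gene, to which reads of the human transgene can align, had 36 to 88 counts in the 6 EV libraries and 1274 to 1848 in the 6 PPFP libraries. Pax8, the other fusion partner, averaged 734 CPM in EV and 694 CPM in PPFP cells without pioglitazone (adjusted p = 0.47), and 723 and 546 CPM with it (log2 fold change -0.39, adjusted p = 0.0070). All 10 thyroid follicular cell markers exceeded a mean of 1 CPM in every group, and their summed level was 10462 to 14050 CPM in EV cells without pioglitazone, 11161 to 14698 CPM in EV cells with it, 13875 to 14518 CPM in PPFP cells without it and 10388 to 10671 CPM in PPFP cells with it. Most of that sum was Tg (thyroglobulin), with means of 11818 and 8462 CPM in PPFP cells without and with pioglitazone, whereas Duox2 (88.7 and 179 CPM) and Duoxa2 (80.9 and 172 CPM) went the other way. The summed level of 7 adipocyte markers was 9.19 to 13.9 CPM in both EV groups, then 723 to 749 CPM in PPFP cells without pioglitazone and 975 to 1006 CPM in PPFP cells with it. Most of that sum was Cfd, with means of 716 and 924 CPM in PPFP cells without and with pioglitazone. The means of the other adipocyte markers in the same order were 6.44 and 40.9 CPM for Plin1, 8.06 and 22.03 CPM for Cidec, 4.54 and 2.40 CPM for Adipoq and 0 and 0.0978 CPM for Fabp4, with Lep and Retn at 0 counts in every library. Of 7 macrophage markers and 7 fibroblast markers, 5 each had at most 3 counts in every library. The others were detected, with group means of 3.94 to 5.70 CPM for Cd14 and 0.525 to 1.21 CPM for Cd68. Among fibroblast markers, those means were 21.1 to 29.5 CPM for Pdgfra and 1.73 to 2.53 CPM for Col1a1. Of 3 C cell markers, Calca and Chga had at most 3 counts in every library, and Ret averaged 6.92 and 7.66 CPM in EV cells without and with pioglitazone and 0.640 and 0.220 CPM in PPFP cells. The part of these marker differences in the results below was not tested, and in bulk RNA fewer cells of a type cannot be told apart from less RNA per cell. Libraries 2 and 3 of PPFP cells with pioglitazone stood closer together than any other replicates, with a chi-square per degree of freedom of 1.67 against 17.1 to 109 for the other replicate pairs of the study. They still differed beyond sampling noise and were kept as separate samples, but whether they are technical repeats of 1 sample cannot be told apart here, in which case that group would have 2 samples. Results with them summed into 1 library are given beside the calls that rest on them.

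In RefSeq annotation of the rat assembly GRCr8, Acot2, Acot1, Acot4 and Acot3 follow each other on chromosome 6 in that order, with Rpl23al8 between Acot1 and Acot4, and Acot5, the pseudogene Acot5-ps1 and Acot6 come next. The other members lie on chromosomes 2 (Acot12), 3 (Acot8), 5 (Acot7 and Acot11), 17 (Acot13) and X (Acot9). The 250 bases upstream of the annotated start were read from RefSeq for all 10 members, 11 promoters in all since Acot7 has 2. Both strands were searched for the half-site AGGTCA, for the strict direct repeat AGGTCANAGGTCA and for a relaxed form of it, GGNCANAGGNCA. Matches to these overlap by construction. The half-site occurred in 14.1% of 33469 promoters of this length, the relaxed repeat in 0.672% and the strict repeat in 0.0508%. Among the members, Acot8 held the relaxed repeat 21 bases upstream of its start, Acot4, Acot8 and Acot12 held a half-site, and no searched motif was found in the windows of Acot1, Acot2, Acot3, Acot7, Acot9, Acot11 and Acot13. A match is a description of letters and not a binding site. The windows shown are those of the 3 genes called with pioglitazone in PPFP cells in the fit without a replicate block (Acot2, Acot3, Acot11) and of the gene with the repeat (Acot8), written 5′ to 3′ on the strand of the gene, with the relaxed repeat in capitals. Acot2 is from chr6:109342590-109342839 (plus strand), Acot3 from chr6:109413447-109413696 (plus strand), Acot11 from chr5:126804508-126804757 (minus strand) and Acot8 from chr3:173962189-173962438 (minus strand), all in GRCr8.
Acot2: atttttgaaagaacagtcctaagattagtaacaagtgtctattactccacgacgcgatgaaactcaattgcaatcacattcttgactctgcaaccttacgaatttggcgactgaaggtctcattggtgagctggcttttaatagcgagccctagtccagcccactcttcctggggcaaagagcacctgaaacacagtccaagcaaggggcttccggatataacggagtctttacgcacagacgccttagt
Acot3: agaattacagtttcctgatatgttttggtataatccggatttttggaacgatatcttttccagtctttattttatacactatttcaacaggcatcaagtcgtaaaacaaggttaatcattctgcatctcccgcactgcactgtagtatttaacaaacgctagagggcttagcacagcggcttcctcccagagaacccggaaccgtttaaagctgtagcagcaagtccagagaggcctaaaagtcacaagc
Acot11: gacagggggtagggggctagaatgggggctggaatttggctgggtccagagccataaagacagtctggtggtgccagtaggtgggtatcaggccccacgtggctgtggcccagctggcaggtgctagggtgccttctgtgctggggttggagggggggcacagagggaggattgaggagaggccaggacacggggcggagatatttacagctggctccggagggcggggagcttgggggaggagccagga
Acot8: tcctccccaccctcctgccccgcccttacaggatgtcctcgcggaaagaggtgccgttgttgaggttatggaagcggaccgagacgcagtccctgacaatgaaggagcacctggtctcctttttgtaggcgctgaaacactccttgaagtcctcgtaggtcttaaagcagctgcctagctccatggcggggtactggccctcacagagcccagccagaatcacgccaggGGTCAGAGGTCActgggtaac

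Of the 10 genes, 9 had a count in some library and 8 had more than 3 counts in some library. Acot12, a cytosolic thioesterase with a START lipid-binding domain known for acting on acetyl-CoA, had 0 counts in all 12 libraries, which allows at most 0.0388 CPM in any group (3 counts over the group, counting error only). Acot4, a peroxisomal type I enzyme, had 0 to 3 counts per library. Its summed counts were 5 in EV cells without pioglitazone, 2 in EV cells with pioglitazone, 2 in PPFP cells without it and 4 in PPFP cells with it, and no difference was detectable at this depth. Neither gene passed the filter on low values. Acot1 passed it only in comparisons that include PPFP cells with pioglitazone, the group where it was highest. Its calls as higher there follow in part from the filter.

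Acot2, the mitochondrial type I enzyme, which acts on long-chain acyl-CoA, was the member that changed most with pioglitazone. Its level was 22.6, 28.8 and 18.1 CPM in EV cells without pioglitazone and 22.4, 27.6 and 19.4 CPM in EV cells with it. In PPFP cells it was 26.4, 27.2 and 27.4 CPM without pioglitazone and 101, 124 and 129 CPM with it. The 3 libraries of PPFP cells with pioglitazone lay far above the other 9, which overlapped across groups. Group means were 23.2 ± 5.35, 23.1 ± 4.16, 26.99 ± 0.521 and 118 ± 14.7 CPM (SD, n = 3 each) in the same order.

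Acot3, a peroxisomal type I enzyme, was also highest in PPFP cells with pioglitazone, by a smaller margin. It measured 13.4, 13.9 and 10.9 CPM in EV cells without pioglitazone and 13.1, 12.0 and 11.4 CPM in EV cells with it. In PPFP cells it measured 11.6, 13.1 and 12.4 CPM without pioglitazone and 18.6, 17.4 and 18.3 CPM with it. Again the 3 libraries of PPFP cells with pioglitazone did not overlap any other library.

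Acot1, the cytosolic type I enzyme, was close to the limit of detection. Its counts were 3, 0 and 4 in EV cells without pioglitazone, 3, 1 and 2 in EV cells with it, 5, 13 and 8 in PPFP cells without it and 11, 22 and 22 in PPFP cells with it. Acot1 and Acot2 are near-identical copies, and reads could have been split between them in the counting, so the Acot1 values are uncertain. When the counts of 5 type I genes (Acot1, Acot2, Acot3, Acot4 and Acot5, the last of which is not a member here) were summed, Acot2 made up 61.9 to 69.7% of the sum in the EV libraries, 66.5 to 69.0% in PPFP cells without pioglitazone and 84.1 to 87.2% in PPFP cells with it.

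**Figure D1:**
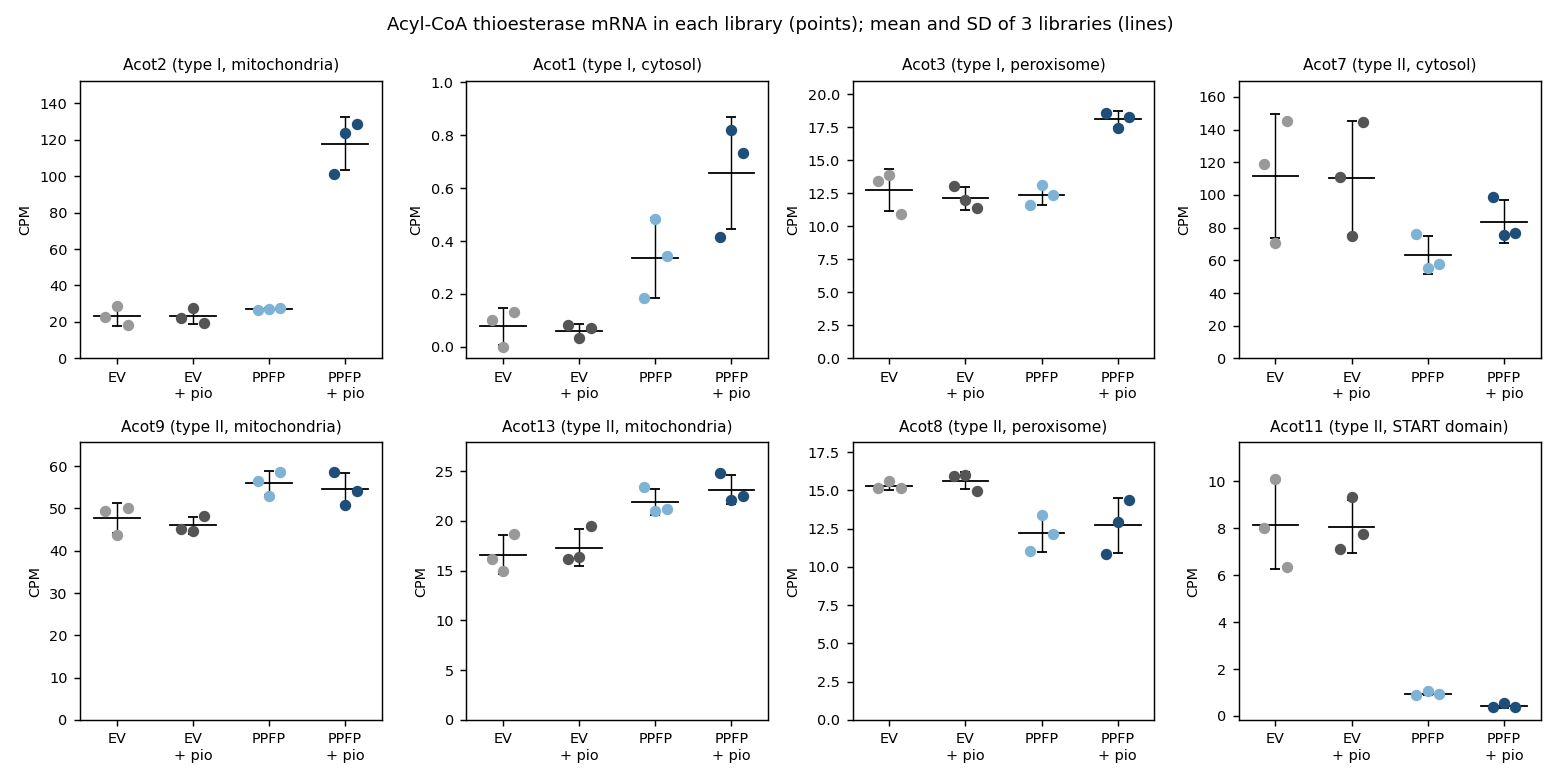
Level of 8 acyl-CoA thioesterase genes in each library. The y axis is CPM and the x axis the group (EV or PPFP cells, + pio for pioglitazone), points are libraries, and lines are the mean and SD of 3 libraries. For Acot2 the libraries of PPFP cells with pioglitazone lie at 101 to 129 CPM and all others between 18.1 and 28.8 CPM, whereas for Acot11 both groups of PPFP cells lie at or under 1.04 CPM.

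Acot11, a type II enzyme with a START domain known from brown fat, differed most between the cell lines. Its level was 8.004, 10.1 and 6.33 CPM in EV cells without pioglitazone and 7.10, 9.32 and 7.75 CPM in EV cells with it. In PPFP cells it was 0.883, 1.04 and 0.942 CPM without pioglitazone and 0.379, 0.559 and 0.367 CPM with it. The EV groups overlapped each other, all PPFP libraries lay below all EV libraries, and within PPFP cells the libraries with pioglitazone lay below those without it. These PPFP levels rested on 22 to 28 counts per library without pioglitazone and 10 to 15 with it.

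Acot7, a cytosolic long-chain acyl-CoA thioesterase best known from brain, was the member that varied most between libraries of a group among those with over 100 counts in all libraries. It measured 119, 70.7 and 145 CPM in EV cells without pioglitazone and 111, 75.1 and 145 CPM in EV cells with it. In PPFP cells it measured 76.3, 55.1 and 57.9 CPM without pioglitazone and 98.8, 75.5 and 76.5 CPM with it. The lowest EV library without pioglitazone (70.7 CPM) lay below the highest PPFP library without it (76.3 CPM), so these groups overlapped.

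The mitochondrial type II enzymes Acot9 and Acot13 and the peroxisomal Acot8 varied within narrow ranges. Acot9 lay at 43.7 to 50.1 CPM over the 6 EV libraries, against 50.9 to 58.7 CPM over the 6 PPFP libraries. The EV libraries held 14.9 to 19.5 CPM of Acot13, and the PPFP libraries 21.0 to 24.8 CPM. For Acot8 the EV range was 15.0 to 16.0 CPM and the PPFP range 10.8 to 14.4 CPM. By these ranges Acot9 and Acot13 were higher and Acot8 lower in PPFP cells, though for Acot9 the ranges nearly touched. The share of all genes whose ranges separate the lines was not computed. Between the lines without pioglitazone, 22.0% of all genes were called higher and 23.1% lower.

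Setting PPFP against EV cells, both without pioglitazone, addressed how the lines differ when no drug was added. Acot11 fell 8.47-fold, Acot7 fell 1.77-fold and Acot8 fell 1.26-fold, whereas Acot13 rose 1.32-fold. Of the 7 members tested, 1 was higher and 3 were lower at an adjusted p under 0.05 (edgeR quasi-likelihood test with Benjamini-Hochberg adjustment over all genes), against a background of 22.0% of all 10264 genes higher and 23.1% lower. The log2 fold change of Acot11 was -3.08 (SE 0.23, adjusted p = 5.4e-05). It was -0.82 for Acot7 (SE 0.25, adjusted p = 0.032), -0.33 for Acot8 (SE 0.11, adjusted p = 0.048) and 0.40 for Acot13 (SE 0.12, adjusted p = 0.026). Acot9 (0.23, adjusted p = 0.072), Acot2 (0.22, adjusted p = 0.30) and Acot3 (-0.04, adjusted p = 0.81) did not pass. Acot1 was not tested here. Its pooled counts were 26 in PPFP cells and 7 in EV cells, a ratio of 4.30 after scaling (95% exact binomial interval 1.82 to 11.7, counting error only). The median log2 fold change was -0.04 over the members tested and 0.00 over all genes. The calls for Acot7, Acot8 and Acot13 were fragile. Acot7 was lost without EV library 1 or 3 or PPFP library 2 or 3, with log2 fold changes between -0.78 and -0.59, and Acot13 without any 1 of 5 libraries. Acot8 was lost whichever library was left out. With a replicate block in the edgeR fit, Acot8 (adjusted p = 0.11) and Acot13 (adjusted p = 0.053) did not pass.

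With pioglitazone in both lines, 3 of the 4 type I members were higher in the PPFP line, and Acot4 was not tested. Acot1 rose 10.1-fold, Acot2 rose 5.16-fold and Acot3 rose 1.51-fold, while Acot11 fell 18.2-fold. Of the 8 members tested, 5 were higher and 1 was lower, against a background of 26.3% of 10291 genes higher and 26.4% lower. Acot1 entered this count only because its level in PPFP cells with pioglitazone met the filter on low values. The log2 fold changes were 3.34 for Acot1 (SE 0.49, adjusted p = 0.0011), 2.37 for Acot2 (SE 0.16, adjusted p = 2.9e-05) and 0.59 for Acot3 (SE 0.10, adjusted p = 0.0022). Acot13 (0.43, SE 0.12, adjusted p = 0.016) and Acot9 (0.26, SE 0.08, adjusted p = 0.035) were higher and Acot11 (-4.19, SE 0.23, adjusted p = 1.5e-05) was lower. Acot7 (-0.39, adjusted p = 0.20) and Acot8 (-0.28, adjusted p = 0.11) did not pass, though Acot7 passed without EV library 2 (-0.61, adjusted p = 0.021) and ranged from -0.61 to -0.16 with 1 library left out. The pooled Acot1 counts were 55 and 6, a ratio of 10.6 (95% exact binomial interval 4.59 to 30.3, counting error only). The median log2 fold change was 0.35 over the members tested and 0.01 over all genes. This comparison and the previous one use different libraries, and the change in the cell-line difference is tested as the interaction below. The call for Acot9 was lost without any 1 of 5 libraries, the call for Acot13 without EV library 1 or PPFP library 2 or 3, and both with PPFP libraries 2 and 3 summed (adjusted p = 0.093 and 0.053), whereas Acot1, Acot2, Acot3 and Acot11 passed with those libraries summed.

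**Figure D2:**
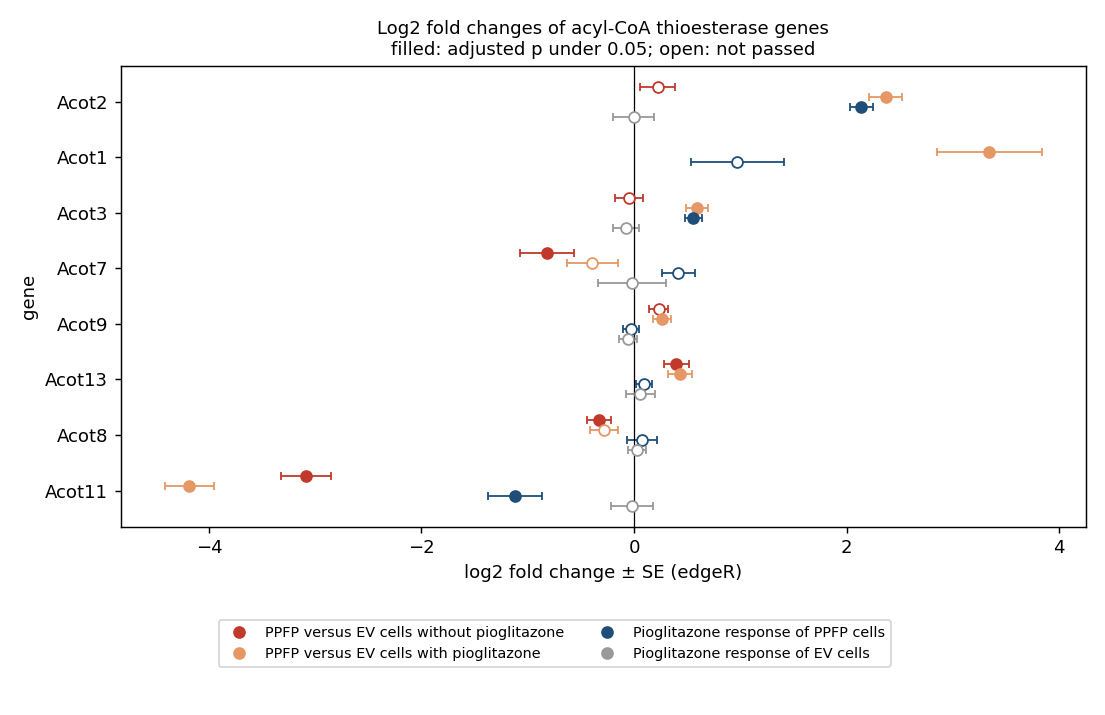
Log2 fold changes of the acyl-CoA thioesterase genes in 4 pairwise comparisons. The x axis is the log2 fold change with its SE as bars and the y axis the gene, and filled points had an adjusted p under 0.05. Acot2 and Acot3 are filled for pioglitazone in PPFP cells and for PPFP versus EV cells with pioglitazone, and no gene is filled for pioglitazone in EV cells.

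The response of PPFP cells to pioglitazone addressed what the drug does when the fusion is present. Acot2 rose 4.40-fold and Acot3 rose 1.47-fold, and Acot11 fell 2.18-fold. Of the 8 members tested, 2 were higher and 1 was lower, against a background of 7.63% of 10064 genes higher and 7.13% lower. The log2 fold change was 2.14 for Acot2 (SE 0.11, adjusted p = 0.00036), 0.56 for Acot3 (SE 0.08, adjusted p = 0.0062) and -1.12 for Acot11 (SE 0.25, adjusted p = 0.032). Acot1 (0.97, adjusted p = 0.20), Acot7 (0.41, adjusted p = 0.14), Acot13 (0.09, adjusted p = 0.49), Acot8 (0.08, adjusted p = 0.78) and Acot9 (-0.03, adjusted p = 0.84) did not pass. With the 5 type I genes summed into 1 feature, the sum rose by 1.78 on the log2 scale (adjusted p = 0.00033). Splitting of reads among those 5 genes does not alter this sum, but reads that were counted for none of them would be missing from it. The median log2 fold change was 0.25 over the members tested and 0.01 over all genes. The call for Acot11 was lost when any 1 of 5 of the 6 libraries was left out. With libraries 2 and 3 of PPFP cells with pioglitazone summed, Acot2 (adjusted p = 0.0034) and Acot3 (adjusted p = 0.033) passed and Acot11 (adjusted p = 0.071) did not.

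Libraries of the same number deviated together within each cell line and were read as pairs, although in PPFP cells library 2 without pioglitazone correlated more with library 3 with it (r = 0.627) than with its own number (r = 0.502), so pairs 2 and 3 are not set apart by number. In PPFP cells the CPM ratio of Acot2 with to without pioglitazone was 3.83, 4.55 and 4.70 in pairs 1, 2 and 3, and that of Acot3 was 1.60, 1.33 and 1.48. The ratio of Acot7 was 1.29, 1.37 and 1.32, a narrow range although its level differed between libraries. Acot1 had ratios of 2.26, 1.69 and 2.14, from few counts, and Acot11 of 0.429, 0.535 and 0.390. With the replicate block in the edgeR fit, 4 of 8 members were higher (Acot1, Acot2, Acot3, Acot7) and 1 was lower (Acot11), against a background of 27.7% of genes higher and 23.9% lower. In that fit Acot7 had a log2 fold change of 0.42 (SE 0.04, adjusted p = 2.0e-08) and Acot1 of 0.97 (SE 0.34, adjusted p = 0.019). When libraries 2 and 3 of PPFP cells were also summed in both treatments, leaving 2 pairs, the same 5 genes passed, with an adjusted p of 2.6e-05 for Acot7 and 0.027 for Acot1. In that setting 4669 of all 10248 genes tested were called in either direction.

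In EV cells no member passed the test for a change with pioglitazone, and in the fit without a replicate block every tested log2 fold change was smaller in size than its SE. The edgeR quasi-likelihood test called 0 of 7 members, and 0% of 10146 genes were called higher and 0% lower, while 16 genes had an unadjusted p under 0.05. DESeq2 and the edgeR exact test also called 0 genes. With the replicate block 0 members were called, against a background of 0.00986% of genes higher and 0% lower. The log2 fold changes were 0.00 for Acot2 (SE 0.20), -0.07 for Acot3 (SE 0.12), -0.02 for Acot7 (SE 0.32) and -0.02 for Acot11 (SE 0.20), each with an adjusted p of 1.00. Pair by pair the CPM ratio of Acot2 was 0.990, 0.960 and 1.07, and that of Acot7 was 0.933, 1.061 and 0.998. The pooled Acot1 counts, 6 with and 7 without pioglitazone, gave a ratio of 0.793 (95% exact binomial interval 0.220 to 2.76, counting error only).

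**Figure D3:**
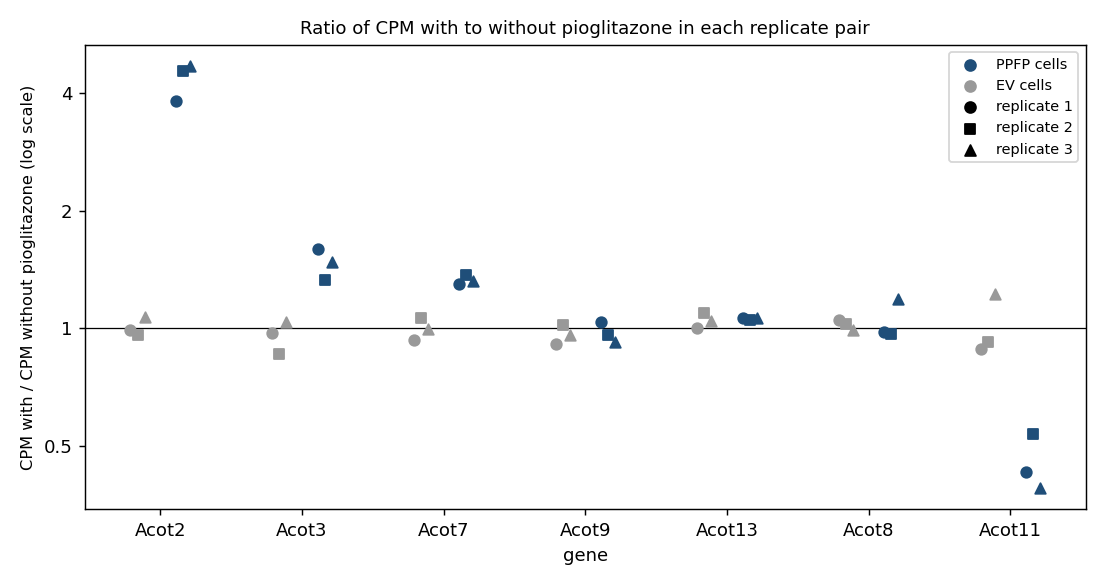
Ratio of CPM with to CPM without pioglitazone for 7 genes in each replicate pair. The y axis is the ratio on a log scale and the x axis the gene, with marker shapes for replicate numbers and colours for cell lines. In PPFP cells Acot2 lies at 3.83 to 4.70, Acot3 at 1.33 to 1.60, Acot7 at 1.29 to 1.37 and Acot11 at 0.390 to 0.535, whereas the EV ratios of Acot2 lie at 0.960 to 1.07.

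Whether the 2 lines differed in their response was tested directly as the interaction of cell line and pioglitazone over all 12 libraries. Acot2 was the member that passed, with a response 4.37-fold larger in PPFP cells than in EV cells (log2 difference 2.13, SE 0.24, adjusted p = 0.0011), also with PPFP libraries 2 and 3 with pioglitazone summed (adjusted p = 0.0049). Thus 1 of 8 members was higher and 0 were lower, against a background of 1.38% of 10482 genes higher and 1.26% lower. The log2 difference was 0.62 for Acot3 (SE 0.15, adjusted p = 0.059) and -1.12 for Acot11 (SE 0.33, adjusted p = 0.12), and Acot7 (0.42, SE 0.39, adjusted p = 0.78) and Acot1 (1.28, SE 1.03, adjusted p = 0.73) were also short of the threshold. With the replicate block within each cell line, Acot2 (2.12, adjusted p = 1.3e-09), Acot3 (0.62, adjusted p = 0.00048) and Acot7 (0.42, adjusted p = 7.1e-05) were higher and Acot11 (-1.12, adjusted p = 0.013) was lower, against a background of 17.2% of genes higher and 17.1% lower. The same 4 passed with libraries 2 and 3 of PPFP cells summed in both treatments (largest adjusted p = 0.024, for Acot11). In that setting 3177 of all 10533 genes tested were called in either direction. Acot8, Acot9 and Acot13 had log2 differences in response of 0.03, 0.02 and 0.02 with adjusted p-values of 0.98, 0.99 and 0.99.

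The pattern of Acot2 over the libraries was compared with that of the other members and of all genes. Pearson's r of log2 CPM between Acot2 and Acot3 was 0.94 over the 12 libraries. Acot9 and Acot13 followed each other (r = 0.89), and Acot11 ran opposite to Acot13 (r = -0.91). Genes with a pattern close to that of Acot2 among 9631 were Abcc4 (r = 0.988), Oxsr1 (r = 0.988), Phospho1 (r = 0.983) and Pip5k1b (r = 0.982). Phospho1, a phosphatase of mineralising tissue, averaged 61.4 to 63.7 CPM in the other 3 groups and 269 CPM in PPFP cells with pioglitazone. These coefficients describe libraries that fall into groups and share scaling, and carry no test.

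The thioesterases act on a pool of acyl-CoA that other enzymes fill, bind and drain, and 51 genes of that pool were present among 58 listed. With pioglitazone in PPFP cells, 10 of the 42 tested were higher and 0 lower, against 7.63% and 7.13% of all genes. The list of acylcarnitine formation and exchange held 4 of them out of 8 tested. Crat, carnitine acetyltransferase, averaged 114 ± 2.81 CPM without and 269 ± 9.06 CPM with pioglitazone (log2 fold change 1.26, SE 0.05, adjusted p = 0.00011). Slc25a20, the carnitine-acylcarnitine carrier, averaged 78.8 ± 2.43 and 135 ± 5.66 CPM (0.78, SE 0.05, adjusted p = 0.00047). Cpt1a, the entry enzyme of mitochondrial fatty acid oxidation, rose by 0.62 (SE 0.08, adjusted p = 0.0044), and Cpt2, its partner at the inner membrane, by 0.41 (SE 0.08, adjusted p = 0.016). The others were the acyl-CoA binding protein Dbi (0.49, adjusted p = 0.0020), the peroxisomal CoA hydrolase Nudt7 (0.87, adjusted p = 0.011), the synthetases Acsf2 (0.26, adjusted p = 0.010) and Acsbg1 (0.61, adjusted p = 0.042), and Pank3 and Ppcs of CoA synthesis (0.39, adjusted p = 0.0031, and 0.41, adjusted p = 0.031). With the replicate block 20 of 42 were higher, the 10 above among them, and 6 lower, against 27.7% and 23.9% of all genes. The lower ones were Acbd4, Acbd5, Acss2, Nudt12, Pank4 and Them6, for example Them6 (-0.26, adjusted p = 0.00023). With libraries 2 and 3 of PPFP cells with pioglitazone summed, without the block, 6 were higher (Crat, Slc25a20, Cpt1a, Dbi, Nudt7 and Pank3) and 0 lower, against 3.68% and 3.30%. In EV cells 0 of 43 passed, with or without the block, and those of smallest p there were Acss2 (log2 fold change -0.14), Nudt19 (-0.13) and Coasy (0.09). In the interaction 3 of 45 were higher and 0 lower, against 1.38% and 1.26% of all genes, namely Slc25a20 (0.76, adjusted p = 0.0042), Crat (1.28, adjusted p = 0.016) and Cpt1a (0.54, adjusted p = 0.034). All 3 were on the list of acylcarnitine formation and exchange. With the block 15 of 45 were higher and 4 lower, against 17.2% and 17.1%, and with those libraries summed 2 were higher (Slc25a20 and Crat) and 0 lower, against 0.881% and 0.540%.

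**Figure D4:**
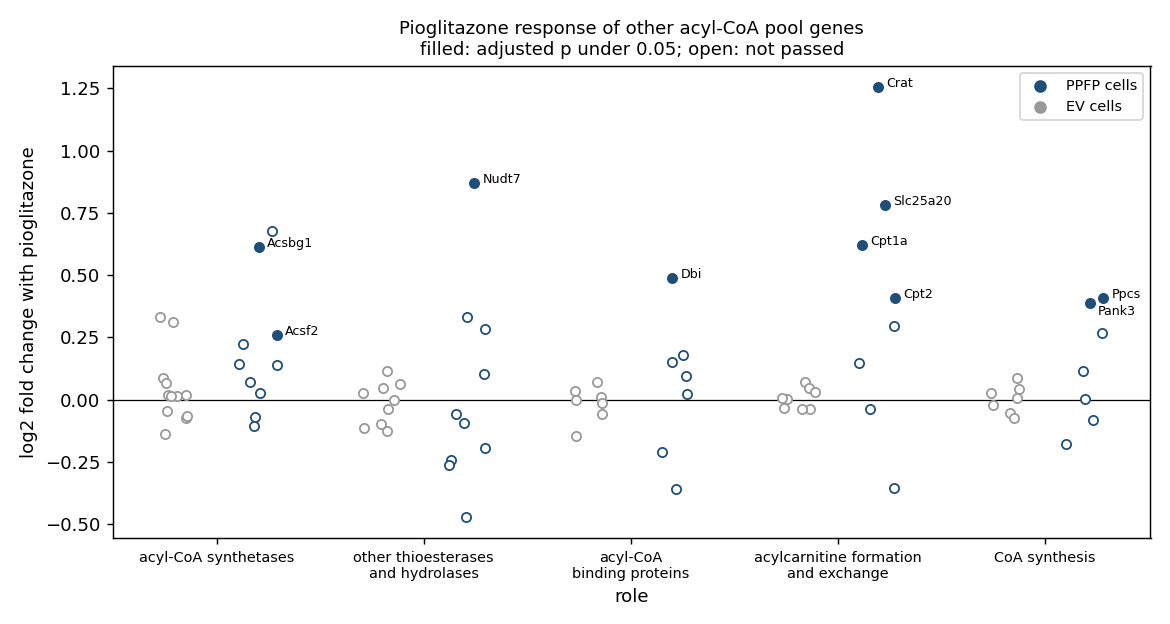
Pioglitazone response of the other acyl-CoA pool genes by role. The y axis is the log2 fold change with pioglitazone and the x axis the role, blue points are PPFP cells, grey points EV cells, and filled points had an adjusted p under 0.05. Calls are from the fit without a replicate block, and the 10 filled and named genes are all in PPFP cells, led by Crat at 1.26.

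Between the lines without pioglitazone, 9 of 43 tested pool genes were higher and 14 lower in PPFP cells, against 22.0% and 23.1% of all genes. With pioglitazone 13 of 42 were higher and 13 lower, against 26.3% and 26.4%. These shares are mostly near the background. The genes with the smallest p without pioglitazone were Them5, Acsbg1 and Scp2. Them5, a mitochondrial thioesterase outside the Acot naming, averaged 12.9 ± 1.59 CPM in the EV libraries, against 0.453 ± 0.109 CPM in PPFP cells (log2 fold change -4.82, SE 0.22, adjusted p = 6.7e-06), a fall in the same direction as that of Acot11. Scp2, a peroxisomal lipid carrier and thiolase, averaged 134 ± 15.9 and 388 ± 20.5 CPM (1.54, SE 0.11, adjusted p = 3.7e-05). Acsbg1, a very long-chain acyl-CoA synthetase, averaged 0.0895 ± 0.0198 and 3.63 ± 0.551 CPM (5.28, SE 0.30, adjusted p = 1.6e-05). Ppt2, a lysosomal thioesterase, was lower in PPFP cells (-1.94, SE 0.16, adjusted p = 8.7e-05). Of the 10 other thioesterases and hydrolases tested in this comparison, 1 was higher and 5 were lower, against the same 22.0% and 23.1% of all genes. With pioglitazone the genes of smallest p were Slc25a20 (1.40, adjusted p = 2.1e-05), Ppt2 (-2.23, adjusted p = 2.4e-05) and Them5 (-5.17, adjusted p = 2.6e-05).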

How the data were processed

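RNA-seq libraries of 4 groups (3 each) were analysed. Per the labels and methods, TruSeq libraries (50 nt paired-end reads) were aligned to rn4 by the authors with TopHat2 2.0.11 and counted with HTSeq 0.6.1p1 (intersection-strict), and the deposited table holds raw counts. The gene annotation and strand setting are not given in the sources used here. The deposited peak list of 1 ChIP sample was not used here, since its rn4 positions could not be joined to the GRCr8 gene table. The 10 genes and the pool and marker lists were chosen with earlier results of these data known. Genes passing filterByExpr were scaled by TMM and tested with the edgeR 4.0.16 quasi-likelihood test (R 4.3.3), without a replicate block, on the 6 libraries of each comparison or on all 12 for the interaction. P-values were adjusted by Benjamini-Hochberg over all genes tested, and the procedure was tested on simulated data. The rule for named genes took all 10 members, 3 pool genes of smallest p per comparison and 5 genes most correlated with Acot2, and other pool genes were named after their values were seen. A gene that the rule takes is not reported here. Same-numbered libraries deviated together within a line (r of deviations from group means 0.774, 0.502 and 0.453 in PPFP cells, 0.579, 0.776 and 0.832 in EV cells) but not between lines, so the block is given for pioglitazone responses. Promoter letters came from RefSeq (GRCr8). Alternatives covered scaling, filters, DESeq2 1.42.0, the edgeR exact test, the block, 1 fit of all libraries, leaving out each library and, added after seeing the data, summed type I genes and summed libraries, with and without the block.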

Additional observations from a re-analysis of the deposited data

Results flagged for a closer look

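The response of Acot2 to pioglitazone differed between the cell lines by the interaction test, with a log2 difference of 2.13 between PPFP and EV cells (SE 0.24, adjusted p = 0.0011, edgeR, 3 libraries in each of 4 groups). In PPFP cells the level with pioglitazone was above that without it in 3 of 3 replicate pairs, whereas in EV cells it was above in 1 of 3.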

How the results depend on the processing

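The Acot2 calls with pioglitazone (PPFP versus EV cells, response of PPFP cells, interaction) held in every setting run. With 1 library left out its log2 values ran from 2.24 to 2.50, 2.05 to 2.23 and 1.94 to 2.28. With the 5 type I genes summed in place of Acot2, the log2 values of the sum were 1.97, 1.78 and 1.81 in the same order. The 2 calls of Acot11 between the lines and the 2 of Acot3 held in every setting. The number of members called in PPFP versus EV cells without pioglitazone was 4, 2 with the replicate block (Acot7, Acot11) and 1 to 3 with 1 library left out, and Acot2 passed without EV library 2 (0.41). Same-numbered libraries did not deviate together between the lines (r of -0.256, 0.356 and -0.360 without pioglitazone). The methods place all samples of an experiment on the same lanes, but whether the numbers mark the same experiment in both lines is not stated. In PPFP versus EV cells with pioglitazone the block lost the call of Acot9, and leaving out 1 library gave 4 to 6 calls. The replicate block, fitted to PPFP cells with and without pioglitazone, gave 5 calls in place of 3, also with libraries 2 and 3 summed, and over the pool genes 20 higher and 6 lower in place of 10 and 0. For the interaction, which called 1, it gave 4, also with those libraries summed, and a minimum of 10 counts in every library, DESeq2 and leaving out EV library 3 without pioglitazone each gave 2 (Acot2, Acot3), so 1 library left out gave 1 to 2. Over all genes the block moved the calls from 1486 to 5198 in PPFP cells and from 277 to 3594 in the interaction, and summing libraries 2 and 3 of PPFP cells with pioglitazone, without the block, moved them to 709 and 150. With the block and libraries 2 and 3 of PPFP cells summed in both treatments, the calls were 4669 and 3177. Acot1 was tested without pioglitazone between the lines in 2 settings, with 1 fit of all libraries (2.05, adjusted p = 0.025) and with no filter (2.04, adjusted p = 0.063). With library size alone the median over all genes moved to -0.12 in PPFP versus EV cells with pioglitazone, where Acot9 (0.13) and Acot13 (0.30) then missed the threshold and Acot8 (-0.42) passed it. No call changed sign. Some log2 values short of the threshold did. With library size alone the interaction was -0.0076 for Acot8, -0.024 for Acot9 and -0.018 for Acot13, and with 2 libraries summed -0.016 for Acot8. With 1 library left out, the ranges that crossed 0 were -0.14 to 0.023 (Acot3, PPFP versus EV cells without pioglitazone), -0.042 to 0.17 and -0.088 to 0.012 (Acot8 and Acot9, PPFP response), -0.15 to 0.17, -0.28 to 0.24, -0.16 to 0.16 and -0.048 to 0.17 (Acot2, Acot7, Acot11 and Acot13, EV response), and -0.066 to 0.13, -0.037 to 0.078 and -0.074 to 0.12 (Acot8, Acot9 and Acot13, interaction). The cause of these changes was not tested. Peak alternatives were not run, since no peak was tied to a gene. Counts under about 30 per library limit Acot11 in PPFP cells, and Acot1, Acot4 and Acot12 everywhere.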
